A study of Mus musculus with 8 samples.

Results

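The 10 genes described here are used as macrophage markers in a mouse tumour: Adgre1, Csf1r, Cd68, Mrc1, Cd163, Ms4a7, Mertk, Ccr2, Cx3cr1 and Siglec1. They were taken by symbol, and each matched 1 of the 34745 Ensembl genes in the deposited tables. The tumours grew from B16F10 cells, a mouse melanoma line, injected under the skin of C57BL/6J mice that were fed a high cholesterol diet (HCD, 4 tumours, called HCD 1 to HCD 4) or a normal diet (ND, 4 tumours, called ND 1 to ND 4). RNA-seq was run on whole tumour tissue, so host macrophages and melanoma cells contribute to the same library, and both groups carry the same injected line. The labels give no age or sex of the mice, no length of feeding and no sorting of cells. Nothing in the labels ties each tumour to its own mouse. The p-values thus reflect spread among these 8 samples, part or all of which may be technical.

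Macrophages in a tumour derive in part from blood monocytes, which enter along chemokine gradients, and they depend on signals through the CSF1 receptor for survival. Once in the tissue they take up debris, lipoproteins and dying cells through scavenger, lectin and phosphatidylserine-sensing receptors. The genes therefore fall into a growth factor receptor and general markers (Csf1r, Adgre1, Cd68, Ms4a7), lectin and scavenger receptors (Mrc1, Siglec1, Cd163), a receptor for apoptotic cells (Mertk) and chemokine receptors (Ccr2, Cx3cr1).

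None of the 10 genes passed the test for a diet difference over all genes (quasi-likelihood test of edgeR, p adjusted by Benjamini-Hochberg, threshold 0.05), which 0.182% of the 13186 genes tested passed, 0.0683% higher and 0.114% lower in HCD tumours. At an unadjusted p below 0.05, 3 were higher in HCD tumours and 0 lower, against 7.21% of all tested genes higher and 14.7% in either direction. These 3 were Mrc1, Ccr2 and Adgre1. DESeq2 called 2 of them, Mrc1 and Ccr2, against 1.46% of all tested genes higher and 3.31% in either direction. By limma-voom 0 were called, against 19 of the 13186 genes. For Mrc1 and Ccr2 all 4 HCD values lay above all 4 ND values, which held for 4.94% of tested genes, and 0 markers had all HCD values below all ND values, which held for 4.73%. Of the 10 log2 fold changes 9 were above 0, as were 51.1% of those of all tested genes, and their median was 0.60 against 0.0049 over all tested genes. The same shares of all tested genes apply to the gene lists below, with 7.49% lower at an unadjusted p below 0.05 (edgeR).

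Libraries stood apart within the ND group. Total counts were 16137885 to 17722093 in HCD tumours and 14599222 to 17637202 in ND tumours. At least 1 count was found for 16285 to 16728 genes in HCD libraries, for 16745 genes in ND 1 and for 18088 to 18224 genes in ND 2 to ND 4. Olfactory and vomeronasal receptor genes, which sensory epithelia express, had a count for 8 to 13 genes in HCD libraries, 11 in ND 1 and 438 to 465 in ND 2 to ND 4. Mitochondrial genes took 12.2 ± 0.719% of counts in HCD tumours and 14.0 ± 0.481% in ND tumours (SD, n = 4 each), and the part of this in the results was not tested. Each marker is therefore also given from a second model that adds 1 term shared by ND 2, ND 3 and ND 4, so that the diet difference rests on ND 1, assumed to vary like the other libraries. With it the 10 genes split into 5 above and 5 below 0, with a median log2 fold change of 0.0055 against -0.0008 over all tested genes, and 49.9% of all tested genes lay above 0. With the term edgeR called 0 of the 10 (0.0379% of all tested genes), and 1 (Mrc1) had an unadjusted p below 0.05, against 11.3% of all tested genes.

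Stretches upstream of 3 genes are printed as examples chosen after their values were seen: Mrc1 had the smallest p of the 10, and Cd68 and Mertk had the log2 fold changes closest to 0 on either side. Each is 250 bases before the RefSeq start (GRCm38.p6, the assembly also called mm10), 5′ to 3′ on the gene's strand, with capitals for the motif GAGGAA or AGGAAGT on either strand, which are forms of the site of PU.1, the transcription factor that specifies macrophages. Mrc1 lies at chr2:14229164-14229413 (plus strand), Cd68 at chr11:69666171-69666420 (minus strand) and Mertk at chr2:128698665-128698914 (plus strand).
Mrc1: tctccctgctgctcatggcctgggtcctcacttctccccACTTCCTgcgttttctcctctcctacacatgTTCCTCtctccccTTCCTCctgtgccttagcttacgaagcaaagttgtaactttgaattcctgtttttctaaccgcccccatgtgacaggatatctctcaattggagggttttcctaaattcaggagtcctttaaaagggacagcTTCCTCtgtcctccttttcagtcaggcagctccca
Cd68: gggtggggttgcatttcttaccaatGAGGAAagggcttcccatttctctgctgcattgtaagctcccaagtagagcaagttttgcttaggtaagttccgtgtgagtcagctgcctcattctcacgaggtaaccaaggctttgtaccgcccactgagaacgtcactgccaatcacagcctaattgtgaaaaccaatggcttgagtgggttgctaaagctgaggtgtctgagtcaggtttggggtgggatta
Mertk: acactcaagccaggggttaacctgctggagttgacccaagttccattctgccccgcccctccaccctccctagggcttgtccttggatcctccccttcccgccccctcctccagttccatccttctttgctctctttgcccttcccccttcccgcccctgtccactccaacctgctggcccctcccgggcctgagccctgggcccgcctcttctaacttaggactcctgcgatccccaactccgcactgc
The Mrc1 stretch held 3 matches to GAGGAA and 1 to AGGAAGT, all read on the opposite strand and none overlapping another. The Cd68 stretch held 1 match to GAGGAA, and the Mertk stretch held neither motif. Ccr2, the other marker whose groups did not overlap, also had 0 matches to either motif in its window, which is not printed because it lies mostly inside the gene as GENCODE M21 places it. Of 32851 promoter windows of this length, 23.25% held GAGGAA at least once, 0.43% held it at least 3 times, and 7.69% held AGGAAGT. Among the 7 genes with a window in the RefSeq table, 2 held GAGGAA. These are matches of letters, not measured binding.

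Mrc1 encodes the mannose receptor, a lectin by which macrophages take up glycoproteins (ENSMUSG00000026712, chromosome 2, 14229392 to 14332057, plus strand, mm10). It stood at 20.9, 14.3, 24.8 and 21.3 CPM (counts scaled to library size, TMM-normalized) in HCD 1 to HCD 4, against 11.6, 8.68, 6.79 and 9.16 CPM in ND 1 to ND 4. The lowest HCD tumour, HCD 2, lay above the highest ND tumour, ND 1. Mrc1 averaged 20.3 ± 4.37 CPM in HCD tumours and 9.05 ± 1.96 CPM in ND tumours (SD, n = 4 each here and below), a log2 fold change of 1.17 (SE 0.196, edgeR adjusted p = 0.0507). In the model with the added term it was 0.81 (SE 0.292, edgeR adjusted p = 0.378). Leaving out 1 library at a time gave log2 fold changes from 1.05 to 1.31.

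Ccr2 encodes the receptor through which monocytes follow CCL2 out of marrow and blood (ENSMUSG00000049103, chromosome 9, 124101950 to 124113557, plus strand). HCD 1 to HCD 4 had 3.96, 4.06, 3.92 and 3.12 CPM, against 1.66, 0.723, 2.1 and 2.15 CPM in ND 1 to ND 4. The groups did not overlap, and ND 2 was the lowest of all tumours. The log2 fold change was 1.18 (SE 0.307, edgeR adjusted p = 0.128) and stayed at 1.18 with the term for ND 2 to ND 4, with a wider error (SE 0.538, edgeR adjusted p = 0.455). These values rest on 12 to 68 counts per library.

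Cx3cr1, the fractalkine receptor of patrolling monocytes and many tissue macrophages (ENSMUSG00000052336, chromosome 9, 119901616 to 120069879, minus strand), was also a low gene, with 20 to 57 counts per library. Its levels were 2.94, 2.18, 2.13 and 3.23 CPM in HCD 1 to HCD 4, against 2.52, 1.39, 1.24 and 1.74 CPM in ND 1 to ND 4. ND 1 lay inside the HCD range, while ND 2 to ND 4 lay below it. The log2 fold change of 0.61 (SE 0.286, edgeR adjusted p = 0.366) became 0.059 (SE 0.386) with the term.

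Csf1r encodes the receptor for the growth factors CSF1 and IL-34, on which macrophage survival depends (ENSMUSG00000024621, chromosome 18, 61100598 to 61132149, plus strand). It had 35.6, 25.5, 47.9 and 30.5 CPM in HCD 1 to HCD 4, against 39.2, 11.3, 24.2 and 28.2 CPM in ND 1 to ND 4. ND 1 exceeded 3 of the 4 HCD tumours and ND 2 lay below every other tumour. The log2 fold change was 0.44 (SE 0.319, 95% confidence interval -0.27 to 1.15, edgeR adjusted p = 0.583) with diet alone and -0.17 (SE 0.427) with the term, and 0.19 without ND 2. Exons of Hmgxb3, on the opposite strand, cover 873 bases or 15.1% of the Csf1r exons. Hmgxb3 had 12927 counts over the 8 tumours and Csf1r 4052, and whether counting used strand is not stated in the labels, so reads of the pair may be mixed.

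Adgre1, which encodes the surface antigen most used to identify mouse macrophages (ENSMUSG00000004730, chromosome 17, 57358691 to 57483527, plus strand), had 13.7, 9.03, 12.8 and 14.1 CPM in HCD 1 to HCD 4, against 10.6, 4.94, 8.83 and 8.54 CPM in ND 1 to ND 4. HCD 2 lay below ND 1 and close to ND 3, and the other 3 HCD tumours lay above every ND tumour. Means were 12.4 ± 2.32 CPM in HCD tumours and 8.22 ± 2.37 CPM in ND tumours, with a log2 fold change of 0.59 (SE 0.227, edgeR adjusted p = 0.271). With the term it was 0.23 (SE 0.338).

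Siglec1, the sialic acid-binding receptor of resident and interferon-exposed macrophages (ENSMUSG00000027322, chromosome 2, 131069220 to 131086765, minus strand), varied most between tumours among the 9 genes with a count in every tumour, 6.37-fold from the lowest to the highest. It had 11.1, 9.88, 15.3 and 11.7 CPM in HCD 1 to HCD 4, against 12.8, 2.41, 5.37 and 5.76 CPM in ND 1 to ND 4. ND 1 was above all HCD tumours but HCD 3, and ND 2 to ND 4 were below all of them. Its log2 fold change of 0.86 (SE 0.392, edgeR adjusted p = 0.346) turned to -0.094 (SE 0.389) with the term and reached 1.41 without ND 1.

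Cd163, the haemoglobin-haptoglobin scavenger receptor (ENSMUSG00000008845, chromosome 6, 124304656 to 124330527, plus strand), was the least abundant. Counts were 34, 10, 35 and 10 in HCD 1 to HCD 4, against 18, 24, 0 and 1 in ND 1 to ND 4. Both groups held 1 pair of higher and 1 pair of lower tumours, and the count of 0 in ND 3 allows up to 0.185 CPM (3 counts, counting error only). The fitted log2 fold change of 1.00 (SE 0.849, 95% confidence interval -0.89 to 2.89) had an edgeR adjusted p = 0.646. It was 0.34 (SE 1.32) with the term and 1.75 without ND 2, and neither sign of a difference could be told from the spread between tumours and the low counts.

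Mertk, a receptor tyrosine kinase that recognizes apoptotic cells through the bridging proteins GAS6 and protein S (ENSMUSG00000014361, chromosome 2, 128698956 to 128802894, plus strand), had 12.2, 9.57, 15.9 and 13.4 CPM in HCD 1 to HCD 4, against 13.3, 14.2, 10.2 and 15.1 CPM in ND 1 to ND 4. The ND range lay within the HCD range, and ND 2, the lowest tumour for Csf1r, was among the higher ones here. The log2 fold change was -0.047 (SE 0.172, 95% confidence interval -0.43 to 0.34, edgeR adjusted p = 0.935) and -0.057 (SE 0.284) with the term.

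Cd68, a lysosomal glycoprotein of phagocytes (ENSMUSG00000018774, chromosome 11, 69664213 to 69666153, minus strand), had 134, 159, 157 and 157 CPM in HCD 1 to HCD 4, against 157, 169, 137 and 128 CPM in ND 1 to ND 4. It was highest in ND 2, where Adgre1, Csf1r, Siglec1 and Ccr2 were lowest. The log2 fold change was 0.039 (SE 0.0973, 95% confidence interval -0.18 to 0.25, edgeR adjusted p = 0.899), the narrowest interval of the 10 genes, and -0.048 (SE 0.156) with the term. Melanoma cells are part of the same libraries, and which cells supplied the Cd68 and Mertk counts was not tested. Ms4a7, a tetraspan membrane protein of macrophages (ENSMUSG00000024672, chromosome 19, 11321039 to 11336146, minus strand), had 3.54, 2.12, 2.42 and 3.4 CPM in HCD 1 to HCD 4, against 4.69, 1.69, 1.79 and 2.85 CPM in ND 1 to ND 4. The ND tumours spread on both sides of the HCD tumours, with ND 1 highest of all. Its log2 fold change was 0.058 (SE 0.347, edgeR adjusted p = 0.965) with diet alone and -0.71 (SE 0.391, edgeR adjusted p = 0.535) with the term.

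**Figure D1:**
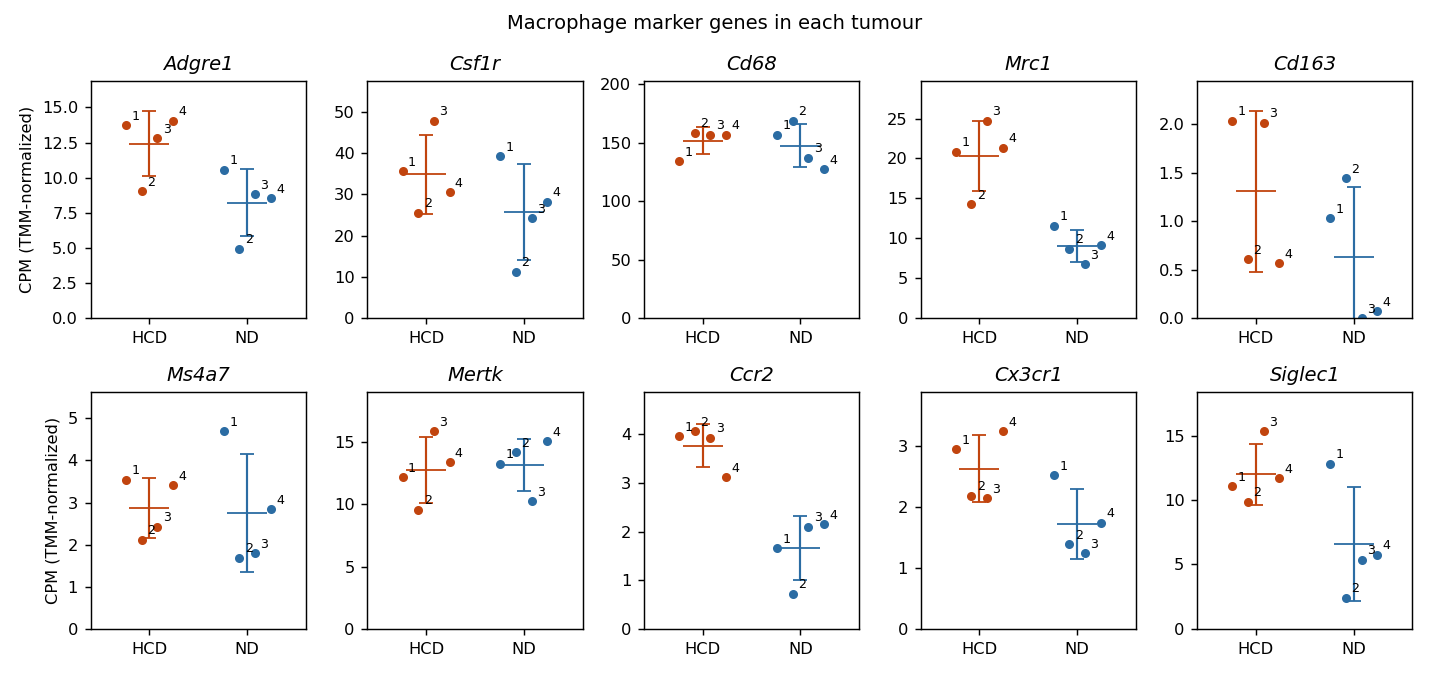
Each panel plots 1 gene's CPM (TMM-normalized) in the 4 HCD and 4 ND tumours, with the replicate number beside each point and a bar for the mean and SD (cut at 0 for Cd163). The HCD and ND points are apart for Mrc1 and Ccr2 and overlap in the other 8 panels.

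**Figure D2:**
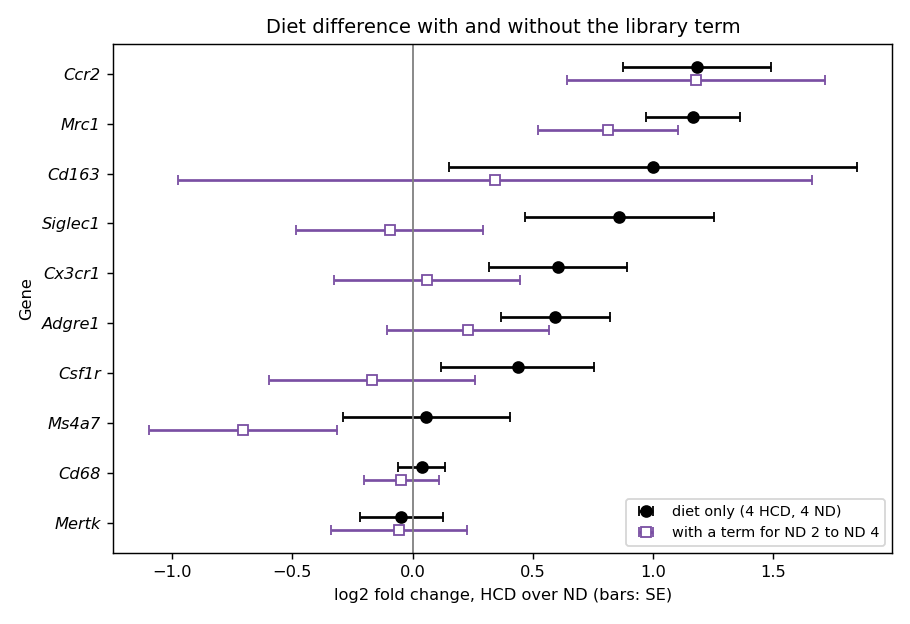
Points give each gene's log2 fold change (HCD over ND) and bars its SE, from the fit with diet alone (filled circles) and with a term for ND 2 to ND 4 (open squares). With the term Ccr2 is at 1.18, as with diet alone, and Mrc1 at 0.81, against 1.17 with diet alone. Siglec1 (-0.094), Csf1r (-0.17), Ms4a7 (-0.71), Cd68 (-0.048) and Mertk (-0.057) lie below 0 with the term.

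Compared per length, on the deposited FPKM scale (fragments scaled to gene length and library size), Cd68 was far above the rest, at 72.4 ± 7.05 FPKM over the 8 tumours (SD, n = 8 here). Csf1r followed at 5.18 ± 1.91, then Adgre1 at 2.86 ± 0.895, Mertk at 2.12 ± 0.357, Mrc1 at 1.98 ± 0.939 and Siglec1 at 1.22 ± 0.58 FPKM. Ms4a7 (0.506 ± 0.186), Cx3cr1 (0.316 ± 0.106), Ccr2 (0.194 ± 0.0916) and Cd163 (0.141 ± 0.118 FPKM) were below 1. The range of Cd68 did not overlap that of Csf1r, and every other pair of neighbours in this order had overlapping ranges. Within the tumours, Csf1r exceeded Adgre1 in 8 of 8, and Adgre1 exceeded Mertk in 6. Mrc1 and Mertk changed places by diet. Mrc1 had 2.9, 1.96, 3.36 and 2.85 FPKM in HCD 1 to HCD 4, each above Mertk in the same tumour (2.06, 1.6, 2.63 and 2.18 FPKM). In ND 1 to ND 4 Mrc1 had 1.54, 1.14, 0.891 and 1.22 FPKM, each below Mertk (2.15, 2.28, 1.64 and 2.43 FPKM). Ccr2 exceeded Cd163 in 4 of 8, a count that depends on the Ccr2 length. The deposited FPKM rest on a Ccr2 length of 14043 bases, against 6760 bases of Ccr2 exons in GENCODE M21, which would put its mean at 0.403. With the GENCODE lengths the order of the 10 means was the same. The comparisons within tumours above use the deposited FPKM, were not repeated with these lengths and may change with them.

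The genes did not move as 1 block across tumours. Each gene's log2 CPM was centred on its own mean over the 8 tumours, and the average of these deviations over the 10 genes was 0.48, 0.023, 0.54 and 0.31 in HCD 1 to HCD 4, against 0.23, -0.60, -0.64 and -0.35 in ND 1 to ND 4. ND 1 exceeded HCD 2 on this measure and lay below the other 3 HCD tumours. Cd163, with counts of 0 in ND 3 and 1 in ND 4, entered this mean at -2.63 in ND 3 and -1.97 in ND 4. Part of the low mean in those tumours thus rests on a gene near its floor. Cx3cr1 followed the mean of the other 9 genes most closely, with a root mean square difference of 0.24 on the log2 scale, and Adgre1 and Mrc1 came next at 0.28 and 0.31. Cd163 followed it least, at 1.35. Cd68 spanned a log2 range of only 0.41 and Mertk of 0.72, while Siglec1 spanned 2.61, Ccr2 2.31 and Csf1r 2.08. ND 2 was the lowest tumour for 5 of the genes, Adgre1, Csf1r, Ms4a7, Ccr2 and Siglec1. Without ND 2, 8 of the log2 fold changes were above 0 with a median of 0.46, and 0 genes were called by edgeR, with Mrc1 at 1.15 (edgeR adjusted p = 0.076) and Ccr2 at 0.94 (edgeR adjusted p = 0.127). Relative to Csf1r, Mrc1 stood at 0.587, 0.561, 0.517 and 0.7 of its CPM in HCD 1 to HCD 4, against 0.295, 0.77, 0.281 and 0.324 in ND 1 to ND 4. On that ratio ND 2 lay above every HCD tumour and the other 3 ND tumours below.

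**Figure D3:**
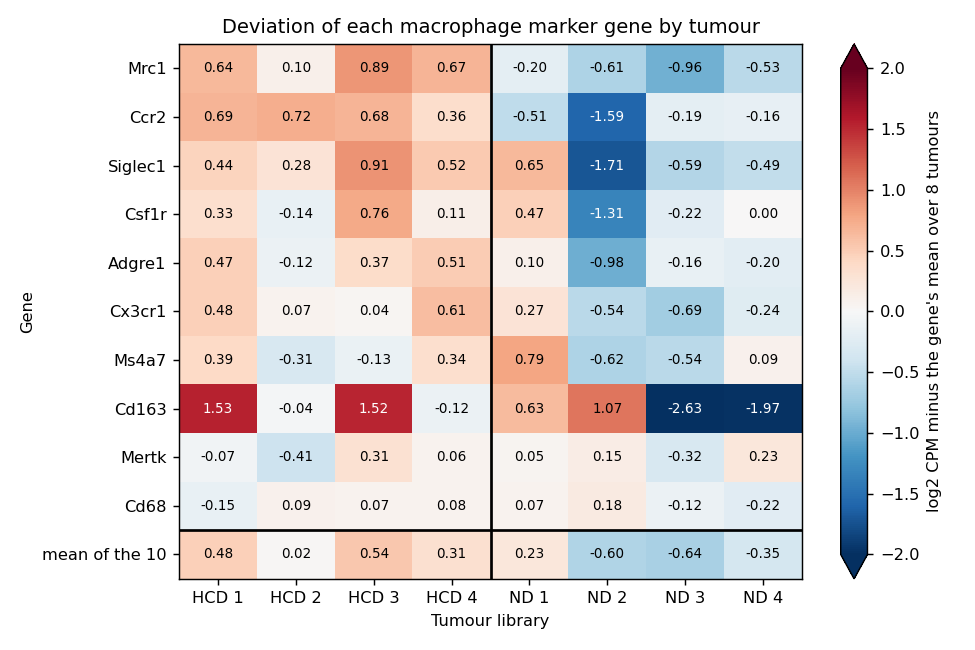
The heat map gives, for each gene (rows) and tumour (columns, HCD left of the line), log2 CPM minus the gene's mean over the 8 tumours, with the mean over the 10 genes in the bottom row. ND 2 is low for Siglec1 (-1.71), Ccr2 (-1.59) and Csf1r (-1.31) but not for Cd68 (0.18), Mertk (0.15) or Cd163 (1.07).

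The 10 genes outside the markers, with a mean of at least 5 CPM, whose pattern was most like the mean of the 10 markers over the 8 tumours were Stab1, Ncf1, Naaa, Pgbd5, Mfsd12, Cep55, Ube2v2, Cd93, Slfn9 and Mtg2. Their root mean square differences ran from 0.13 to 0.22, against a median of 0.47 over 10293 candidates. Stab1, the closest, encodes stabilin-1, a scavenger receptor of macrophages and sinusoidal endothelium. It had 34.9, 24.1, 38 and 38.2 CPM in HCD 1 to HCD 4, against 26.8, 17, 17.5 and 22.1 CPM in ND 1 to ND 4, and HCD 2 lay below ND 1 as it did for Adgre1. Exons of Nt5dc2 overlap those of Stab1. Nt5dc2 had 14642 counts over the 8 tumours and Stab1 3665, so reads of this pair may also be mixed. Ncf1 encodes a subunit of the phagocyte NADPH oxidase, and Cep55 a protein of cell division. The likeness was measured over 8 tumours that include the diet difference. The mean of the markers used for it includes Cd163, at -2.63 in ND 3 and -1.97 in ND 4 on counts of 0 and 1.

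Ligands of the chemokine receptors were measured beside them. All 4 genes tested, Ccl2, Ccl7, Ccl12 and Cx3cl1, had log2 fold changes above 0, with a median of 0.74. With the term 3 were above and 1 below 0, with a median of 0.32, and without ND 2 the median was 0.44. Their mean log2 deviation was 0.0525, 0.54, 0.52 and 0.48 in HCD 1 to HCD 4, against 0.073, -1.67, 0.044 and -0.049 in ND 1 to ND 4. None passed by edgeR, DESeq2 or limma-voom. At an unadjusted p below 0.05 (edgeR), 2 were higher, against 7.21% of all tested genes. Ccl7 had 3.9, 7.88, 6.75 and 5.79 CPM in HCD 1 to HCD 4, against 3.2, 0.844, 4.14 and 4.23 CPM in ND 1 to ND 4 (log2 fold change 0.97, SE 0.407, edgeR adjusted p = 0.308). HCD 1 lay within the ND range and the other 3 HCD tumours above it. Ccl12 averaged 2.72 ± 0.618 CPM in HCD tumours and 1.35 ± 0.79 CPM in ND tumours (log2 fold change 1.00, edgeR adjusted p = 0.317). Ccl2 was at 6.96 CPM in HCD tumours and 4.92 CPM in ND tumours, with 0.50 on the log2 scale becoming 0.019 with the term. Cx3cl1, the ligand of CX3CR1, was at 3.56 CPM in HCD tumours and 2.93 CPM in ND tumours.

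Genes of colony-stimulating factors and their receptors had no call. Csf1, the main CSF1R ligand, averaged 20.9 ± 2.97 CPM in HCD tumours and 19.7 ± 7.54 CPM in ND tumours (log2 fold change 0.09, SE 0.273, 95% confidence interval -0.52 to 0.70, edgeR adjusted p = 0.917). Il34, the second ligand, was low, at 0.62 CPM in HCD tumours and 0.812 CPM in ND tumours (95% confidence interval of the log2 fold change -1.90 to 1.09). The other 3 tested genes, Csf2ra, Csf2rb and Csf3r, encode receptors for GM-CSF and G-CSF, and the ligand genes Csf2 and Csf3 did not pass the filter on low counts. Of the 5 tested genes 4 were above and 1 below 0, against 1 above and 4 below with the term, and 0 had an unadjusted p below 0.05. DESeq2 and limma-voom called 0 of them.

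Myeloid transcription factors were mixed. Spi1, which encodes PU.1, was at 9.83 CPM in HCD tumours and 8.53 CPM in ND tumours. Of 10 tested factors 7 were above and 3 below 0, with a median of 0.25, and 0 were called by edgeR. With the term 3 were above and 7 below 0, with a median of -0.18. Cebpa, a myeloid differentiation factor, was higher in all 4 HCD tumours than in any ND tumour, as were 4.94% of all tested genes. The gap was small, with HCD 4 at 4.6 CPM (81 counts) and ND 1 at 4.46 CPM (78 counts). Cebpa averaged 5.05 ± 0.54 CPM in HCD tumours and 3.28 ± 1.18 CPM in ND tumours. Its log2 fold change was 0.62 (edgeR adjusted p = 0.317), and 0.18 with the term. Klf4, a factor of monocyte differentiation also used by other cells, was at 6.6, 3.88, 4.56 and 4.2 CPM in HCD 1 to HCD 4, against 5.26, 10.4, 8.83 and 12.4 CPM in ND 1 to ND 4. ND 1 lay among the HCD tumours for Klf4. Its log2 fold change was -0.94 (SE 0.268, edgeR adjusted p = 0.157), becoming -0.13 with the term. DESeq2 called Klf4 alone among these factors (adjusted p = 0.0279), against 3.31% of all tested genes in either direction, and limma-voom called 0.

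A wider list of 22 phagocyte genes, all tested, had 20 log2 fold changes above 0 and 2 below, with a median of 0.38. edgeR, DESeq2 and limma-voom called 0 of them. At an unadjusted p below 0.05 (edgeR), 4 were higher (Lgmn, C1qc, Fcgr2b and Lyz2), against 7.21% of all tested genes. C1qc, a chain of complement C1q that macrophages make, had 70.7, 72.7, 95.2 and 71.9 CPM in HCD 1 to HCD 4, against 73.9, 29.9, 36.1 and 61.4 CPM in ND 1 to ND 4. Again ND 1 lay within the HCD range and ND 2 was lowest. Fcgr2b, the inhibitory Fc receptor, was at 13.6 ± 4.31 CPM in HCD tumours and 8.87 ± 2.27 CPM in ND tumours, and Lyz2, lysozyme, at 34.9 ± 5.8 CPM in HCD tumours and 26.6 ± 5.77 CPM in ND tumours. The lysosomal protease gene Lgmn was at 211 ± 5.72 CPM in HCD tumours and 182 ± 16.1 CPM in ND tumours, without overlap. Of the 22 genes, 2 had every HCD value above every ND value, Lgmn among them, against 4.94% of all tested genes. With the term, 9 of the 22 were above and 13 below 0 (median -0.074).

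Among 11 genes of tissue-resident macrophages, 4 passed the filter on low counts, and Clec4f had 0 counts in every tumour. F13a1, the coagulation factor XIII subunit that macrophages store, had 13.1, 11.4, 14.4 and 11.4 CPM in HCD 1 to HCD 4, against 5.55, 9.7, 6.54 and 6.32 CPM in ND 1 to ND 4. The groups did not overlap, and here ND 1 was the lowest ND tumour and ND 2 the highest. Its log2 fold change was 0.84 (SE 0.182, edgeR adjusted p = 0.0954, limma-voom adjusted p = 0.0799) and 1.18 with the term. Without ND 2 it was 1.04 (edgeR adjusted p = 0.0472), in a fit where 12 of 13367 genes passed. Of the fits with 1 library left out, only this 1 is given for F13a1. DESeq2 called F13a1 and Stab1 (adjusted p = 0.00315 and 0.0121), against 1.46% of all tested genes higher, and limma-voom called 0. Lyve1, a hyaluronan receptor shared with lymphatic vessels, was at 1.86 ± 0.38 CPM in HCD tumours and 0.805 ± 0.91 CPM in ND tumours. It had 32, 28, 41 and 26 counts in HCD 1 to HCD 4, against 36, 15, 3 and 1 in ND 1 to ND 4. Folr2, a folate receptor, was at 2.47 ± 0.368 CPM in HCD tumours and 1.54 ± 0.908 CPM in ND tumours. Of the 4 tested genes 4 were above 0, against 2 above and 2 below with the term. With the term the log2 fold change was -0.14 for Lyve1 and -0.12 for Folr2.

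Beside Mertk, 10 of 11 other genes of apoptotic cell uptake were tested, 8 above and 2 below 0, with a median of 0.15, and with the term 5 were above and 5 below. edgeR, DESeq2 and limma-voom called 0. At an unadjusted p below 0.05 (edgeR), 2 were higher, Cd36 and Elmo1, against 7.21% of all tested genes. Cd36, a scavenger receptor for oxidized lipoproteins, was at 13.3 ± 2.38 CPM in HCD tumours and 8.61 ± 2.31 CPM in ND tumours without overlap (log2 fold change 0.62, edgeR adjusted p = 0.209). Of the 10 tested genes, 3 had every HCD value above every ND value, Cd36 among them, against 4.94% of all tested genes. The bridging protein genes Gas6 and Pros1 were at 6.42 and 30.7 CPM in HCD tumours and at 3.59 and 27.9 CPM in ND tumours. The related receptor genes Axl and Tyro3 were at 68.4 and 26.3 CPM in HCD tumours and at 62.5 and 23.6 CPM in ND tumours.

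Genes of macrophage activation had no call in either direction. Of 9 inflammatory genes 5 were tested, 1 above and 4 below 0, and 0 had an unadjusted p below 0.05. Nos2, inducible nitric oxide synthase, had 7.62, 7.51, 7.5 and 4.71 CPM in HCD 1 to HCD 4, against 9.44, 0.904, 22.9 and 6.45 CPM in ND 1 to ND 4. The ND tumours alone spanned from the lowest to the highest Nos2 value. Of 9 genes of alternative activation 4 were tested, 3 above and 1 below 0, and 0 had an unadjusted p below 0.05. Arg1, arginase, averaged 26.3 ± 7.49 CPM in HCD tumours and 20.9 ± 7.18 CPM in ND tumours (log2 fold change 0.33, edgeR adjusted p = 0.627). Cd86, a costimulatory ligand, was at 1.82 CPM in HCD tumours and 1.12 CPM in ND tumours, and the lectin genes Chil3 and Clec10a at 2.68 and 2.23 CPM in HCD tumours and at 1.28 and 1.23 CPM in ND tumours. DESeq2 and limma-voom called 0 genes of either list.

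Lipid-handling macrophage genes, 7 of 7 tested, had 5 log2 fold changes above and 2 below 0, with a median of 0.049. Lpl, lipoprotein lipase, had 12.9, 16.7, 16.4 and 13.9 CPM in HCD 1 to HCD 4, against 9.55, 4.1, 7.1 and 5.83 CPM in ND 1 to ND 4, with no overlap. Its log2 fold change was 1.17 (SE 0.226, edgeR adjusted p = 0.0723) and 0.65 with the term. edgeR and limma-voom called 0 of the 7 genes, and DESeq2 called Lpl, against 1.46% of all tested genes higher. At an unadjusted p below 0.05 (edgeR), 2 were higher (Lpl and Fabp4), against 7.21% of all tested genes. Fabp4 had 18.1, 10.8, 15.6 and 8.85 CPM in HCD 1 to HCD 4, against 6.52, 10.2, 7.72 and 8.26 CPM in ND 1 to ND 4. Adipocytes also express Lpl, Fabp4 and Cd36, and 4 adipocyte genes (Adipoq, Plin1, Lep and Cidec), none of which passed the filter on low counts, summed to 7.13, 1.03, 2.31 and 0.0567 CPM in HCD 1 to HCD 4, against 0.4, 0.482, 0 and 0.0694 CPM in ND 1 to ND 4. HCD 1 and HCD 3 were the highest tumours for both Fabp4 and the adipocyte genes, and the part of adipocytes in these differences was not tested. Trem2, a lipid-sensing receptor of macrophages, was at 7.63 CPM in HCD tumours and 5.78 CPM in ND tumours, with 0.40 on the log2 scale becoming -0.12 with the term. Apoe, which macrophages secrete and other cells express too, was at 668 CPM in HCD tumours and 780 CPM in ND tumours.

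Other cell types also differed between these tumours, and in bulk tissue fewer cells of a type and less RNA per cell cannot be told apart. Summed CPM of the 10 markers was 236 to 284 in HCD tumours and 198 to 254 in ND tumours, of which Cd68 makes up most. The 6 pan-leukocyte genes had 5 log2 fold changes above and 1 below 0 (median 0.49), against 2 above and 4 below with the term (median -0.089), with summed levels of 150 to 203 CPM in HCD tumours and 64 to 207 CPM in ND tumours. At an unadjusted p below 0.05 (edgeR), 1 of these 6 was higher, against 7.21% of all tested genes. For 1 of the 6 every HCD value lay above every ND value, against 4.94% of all tested genes. edgeR, DESeq2 and limma-voom called 0 of them. Ptprc, the leukocyte common antigen, was at 2.47 CPM in ND 2, against 8.7 to 12.6 CPM in the other 3 ND tumours and 10.4 to 12 CPM in HCD tumours. Fibroblast genes were above 0 in 5 of 5 tested (6 listed, median 0.70), but with the term 1 was above and 4 below 0 (median -0.26), with summed levels of 59.5 to 269 CPM in HCD tumours and 45 to 251 CPM in ND tumours, low in HCD 4, ND 3 and ND 4. Endothelial genes were above 0 in 5 of 5 tested, and 3 were above and 2 below with the term. At an unadjusted p below 0.05 (edgeR), 3 were higher (Pecam1, Kdr and Cdh5), against 7.21% of all tested genes. For 1 of the 5 endothelial genes every HCD value lay above every ND value, against 4.94% of all tested genes. The endothelial genes summed to 75.1 to 82.9 CPM in HCD tumours and 54 to 72.1 CPM in ND tumours. Skeletal muscle genes were below 0 in 4 of 4 tested (5 listed), all at an unadjusted p below 0.05 (edgeR), against 7.49% of all tested genes lower. DESeq2 called Acta1, against 3.31% of all tested genes in either direction. The muscle genes summed to 2.06 to 4.5 CPM in HCD tumours and 3.12 to 45.5 CPM in ND tumours. The part of these cells in the differences of the markers was not tested.

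Other immune cells can share single markers, and their genes were measured beside them. Neutrophil genes summed to 1.38 to 1.76 CPM in HCD tumours and 0.915 to 7.22 CPM in ND tumours, with Mpo at 0 in every tumour. T cell genes summed to 3.52 to 6.36 CPM in HCD tumours and 1.15 to 5.5 CPM in ND tumours. Among them Cd4, the co-receptor of helper T cells, did not pass the filter on low counts. It had 22, 21, 11 and 7 counts in HCD 1 to HCD 4, against 1, 2, 4 and 3 counts in ND 1 to ND 4, without overlap. Cd3d averaged 0.397 CPM in HCD tumours and 0.462 CPM in ND tumours, and Cd3e 0.385 and 0.372 CPM. Cd3g, Cd8a and Trac overlapped between the groups. Their log2 fold changes were above 0 in 3 of 3, with 0 at an unadjusted p below 0.05 (edgeR). B cell genes summed to 0.567 to 0.839 and 0.12 to 0.858 CPM in HCD and ND tumours. Dendritic cell genes summed to 10.3 to 11.2 CPM in HCD tumours and 7.96 to 11.2 CPM in ND tumours, most of it Zbtb46. Monocyte genes, which include Ly6c2 at 2.09 CPM in HCD tumours and 1.51 CPM in ND tumours, summed to 87.1 to 109 CPM in HCD tumours and 84.8 to 121 CPM in ND tumours, largely Nr4a1, which other cells also express. Of 6 tested monocyte genes 5 were above and 1 below 0, against 2 above and 4 below with the term. The part of these cells in the levels of Ccr2, Cx3cr1 and Cd163 was not tested. Genes of NK cells and mast cells stayed at or below 1.11 CPM summed in every tumour. Genes of the melanocyte lineage summed to 25490 to 29640 CPM in HCD tumours and 28000 to 29360 CPM in ND tumours.

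**Figure D4:**
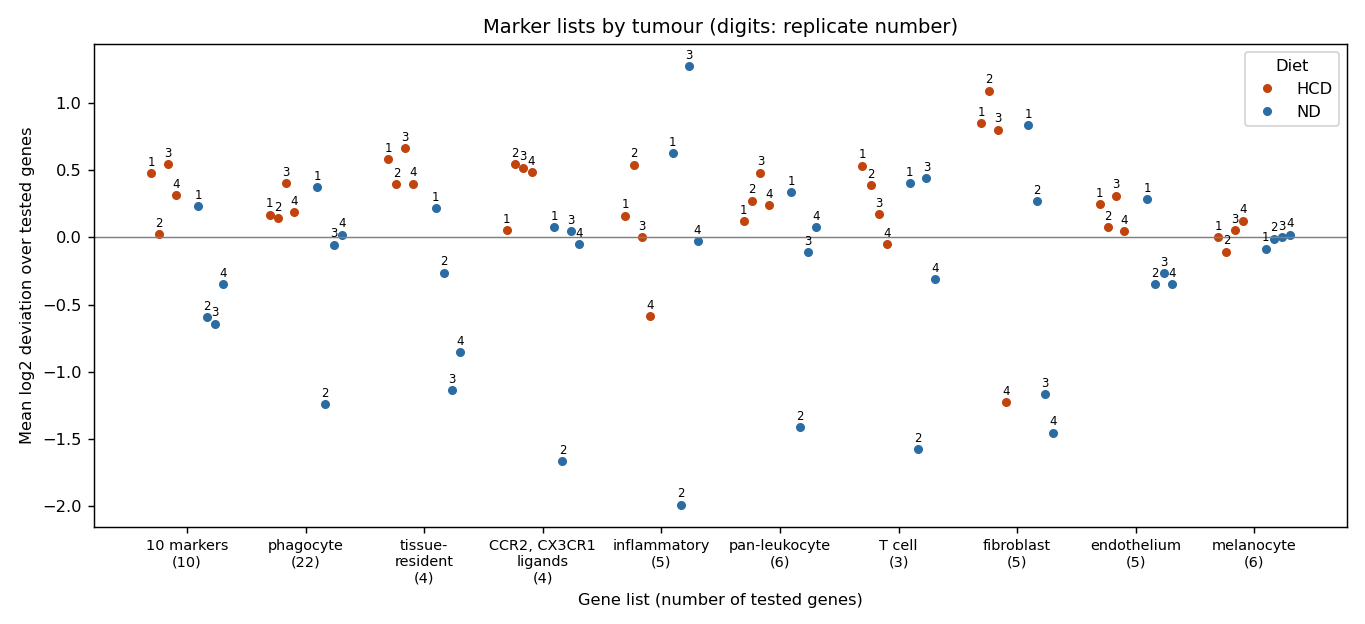
For each gene list (x axis, number of tested genes in brackets) the points give the mean deviation of its tested genes, on the log2 CPM scale centred per gene, HCD left of ND, with replicate numbers. ND 2 is lowest for the phagocyte (-1.24), pan-leukocyte (-1.41) and T cell (-1.58) lists, while for the tissue-resident list ND 3 is lowest (-1.14). Low counts enter the T cell and tissue-resident means. In ND 2 the T cell genes Cd3g, Cd8a and Trac had 1, 7 and 4 counts. In ND 3 the tissue-resident genes Lyve1 and Folr2 had 3 and 8 counts.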

How the data were processed

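RNA from 8 tumour samples was sequenced after a Qiagen column extraction and a paired-end Illumina TruSeq RNA library, per the labels' protocols. Per the submitters' processing notes, CASAVA 1.8, TopHat2 2.0.9, HTSeq and edgeR were used together with mm10. Their roles and order are not stated. Each file holds counts, deposited by the authors as whole numbers per Ensembl gene, and FPKM, deposited by the authors, which equal the count over a gene length and the library total as the values show. Of 34745 genes, 34267 were named in GENCODE M21 (GRCm38).

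The counts were tested with edgeR 4.0.16 (limma 3.58.1, R 4.3.3): quasi-likelihood F-test, TMM factors, expression filter (minimum count 10, minimum total 15), diet as the only term, Benjamini-Hochberg adjustment over 13186 genes, threshold 0.05. Standard errors were computed as the size of the log2 change divided by the root of F. DESeq2 1.42.0, limma-voom and the other alternatives are given in the closing section. The test was checked on simulated counts with 200 genes changed. It called 31 of 67 changes of 1.5-fold, 45 of 67 of 2-fold and 64 of 66 of 4-fold, with 12 false calls. Smaller true changes can thus go uncalled. Between same-diet libraries the chi-square of counts per degree of freedom was 14.5 to 37.6, above sampling noise. Each was counted as 1 sample, though this spread cannot show that they came from separate mice. Total counts of 14599222 to 17722093 per library set the precision, and floors cover counting error only. The members and lists were chosen with earlier results of these data known. Genes were named by rule: all 10 markers, up to 4 genes of smallest p in each list, and the 10 nearest patterns by root mean square difference of log2 CPM (prior count 2). A gene that this rule names is not reported here. Other listed genes were added as background for the markers after their values were seen.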

Additional observations from a re-analysis of the deposited data

Results flagged for a closer look

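Cd68 in HCD 1, at 134 CPM, lay apart from the other 3 HCD tumours, which held 157 to 159 CPM (gap over range 0.923). Ccr2 in HCD 4, at 3.12 CPM, lay below the other 3 HCD tumours, which held 3.92 to 4.06 CPM (gap over range 0.855). Both passed Dixon's 95% criterion for 4 samples. These were 2 of 20 groups checked, and chance marks about 1 group in 20.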

How the results depend on the processing

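Of 187 refits of single markers under the alternatives, 171 kept their direction and their side of the threshold, 5 passed it and 11 turned. Mrc1 passed with DESeq2 (log2 fold change 1.17, adjusted p = 1.04e-05), with no expression filter, with a minimum count of 50 and with robust dispersion, and Ccr2 with DESeq2 (1.19, adjusted p = 0.0182). The number of markers called was 2 with DESeq2, 1 with no expression filter, 1 with a minimum count of 50 (7 markers tested) and 1 with robust dispersion, and 0 with each library left out. The number of all genes called was 437 with DESeq2, 93 with no expression filter, 43 with a minimum count of 50, 50 with robust dispersion, 5 in the model with a term shared by ND 2, ND 3 and ND 4, 0 on log2(FPKM + 0.1) with 2071 at an unadjusted p below 0.05 (limma), and 0 to 12 with each library left out, in place of 24. Without HCD 4 or ND 4 it was 0 (1516 and 1603 at an unadjusted p below 0.05, edgeR), and without HCD 1, HCD 2 or HCD 3 it was 1, 3 and 2. Without ND 1, ND 2 or ND 3 it was 7, 12 and 2.

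In the model with a term shared by ND 2, ND 3 and ND 4, Csf1r turned to -0.17, Cd68 to -0.048, Ms4a7 to -0.71 and Siglec1 to -0.094. With each library left out, Ms4a7 ran from -0.12 to 0.45, Mertk from -0.17 to 0.068 and Cd68 from -0.025 to 0.11. The cause was not tested. Same-numbered tumours had correlations of -0.0676 to 0.107 between their deviations from the group means, and not every tumour correlated best with its own number, so the numbers were not taken to pair them. The fit with the number as a replicate block called 0 of all genes (1634 at an unadjusted p below 0.05, edgeR) and 0 of the 10 markers (5 at an unadjusted p below 0.05). Cd163, Ccr2, Cx3cr1 and Ms4a7 had 0 to 82 counts per library. Their standard errors were 0.849, 0.307, 0.286 and 0.347, against 0.319 for Csf1r and 0.392 for Siglec1.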
